A study of Homo sapiens with 4 samples.

Results

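The MYC and MAX network was followed in Hs746T, an established gastric carcinoma cell line that carries a MET exon 14 skipping mutation together with MET amplification. The members were MYC, MYCN, MAX, MXD1, MXD3, MXD4, MXI1, MNT, MLX and MLXIP, 10 of the 19740 genes named on the array. They were chosen by gene family, but with earlier results of these data known, as were the gene lists below. Every non-control probe of these genes was taken, by RefSeq accession or symbol, which gave 19 probes. RNA was measured on 4 single-colour Agilent human 44K V2 arrays on 1 slide. The cells had received DMSO, the MET kinase inhibitor PHA665752, scrambled (sc) siRNA or MET siRNA, with 1 array per condition and no replicate. The siRNA cultures were harvested 48 h after transfection, and neither the labels nor the methods name the dose or duration of PHA665752 for the array. PHA665752 was set against DMSO, MET siRNA against sc siRNA, and the control arrays against each other (sc siRNA over DMSO) as a yardstick without MET suppression. The yardstick shares its DMSO array with the inhibitor pair and its sc siRNA array with the siRNA pair. The controls are not replicates: only the sc siRNA cells were transfected, and no duration is named for DMSO. A difference between them can therefore hold effects of transfection or time. Without replicates there was no test between conditions, and "rose" or "fell" is used below only of a probe that passed 2-fold.

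MYC is a transcription factor that binds DNA as a dimer with MAX, mainly at the E-box CACGTG, and raises the expression of genes for ribosome building, nucleotide synthesis and growth. MAX also pairs with the MXD proteins (MXD1, MXD3, MXD4 and MXI1) and with MNT, which bring SIN3 and histone deacetylase corepressors to the same E-boxes and oppose MYC. MLX is a MAX-like protein that pairs with some of these repressors and, with MLXIP (MondoA), senses glucose metabolites and switches on genes such as TXNIP. MYC transcription is well known to depend on growth factor signalling through RAS and ERK, and several MXD genes are known to rise when cells leave the cycle.

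Of the 10 member genes, 3 had 1 probe and 7 had several. Well above background on all 4 arrays were 17 of the 19 probes. The MYCN probe (A_24_P94402) was not well above background on any array, with processed signals from 2.1 to 3.6, and gave no ratio, so 9 genes could be compared. The targeted gene, MET, gave signals of 221451 in DMSO cells, 100492 under PHA665752, 190010 in sc siRNA cells and 77853 in MET siRNA cells, log2 ratios of -0.93 and -1.33 in the treatment pairs and 0.032 between the controls. Over the arrays, 61.1% to 68.2% of probes were well above background, with the lowest share on the MET siRNA array, and 75th percentile signals lay between 830.8 and 990.1. Spots of the same probe differed with a median SD of 0.0531 to 0.0589 (log2), which gives a log2 ratio an error of 0.0761 to 0.0800 from spots alone and says nothing of the spread between cultures. Of 6 epithelial markers, 5 were well above background on each array (summed signal 28220 to 41108), while CDH1 had signals of 33.0, 30.2, 13.1 and 10.4 in the order DMSO, PHA665752, sc siRNA and MET siRNA and was dim on the last. The gastric markers that were measured were low. Of 6 listed, 4 had a probe with a value on each array, and 3 of these were well above background. The summed signal of the 4 was 254 to 309, and GKN1 was not above background on any array. MUC5AC and CLDN18 had no probe with a value on each array. Of 4 mesenchymal markers, the 3 with a value on each array were well above background, with a summed signal of 6569 to 9236. VIM had no probe with a value on each array. On the PHA665752 array FN1 was higher than with DMSO (3563.5 against 1061.5) and ZEB1 lower (1448.5 against 2789.9), and in the siRNA pair they were 1107.1 against 770.3 and 1609.0 against 2246.5. Among 4 markers of endothelial and blood cells, PECAM1 (1846.0, 304.2, 1038.5 and 790.5) and PTPRC (22.7 to 37.8) were well above background on each array, the PECAM1 signal being lowest on the PHA665752 array, whereas CD3E was not on any (summed signal of the list 341 to 1897). LYZ had no probe with a value on each array. The part of these markers in the network values was not tested, and in RNA of a whole culture fewer cells of a type and less RNA per cell cannot be told apart.

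The E-box itself stands upstream of several members. In the RefSeq promoter table (GRCh38.p14), CACGTG, which reads the same on both strands, lies within 250 bases upstream of a listed start of 7.7% of 27305 genes. It was present for 3 of the 9 member genes matched there (MXD4, MNT and MLX) and for none of MYCN, MAX, MXD1, MXD3, MXI1 and MLXIP. MYC was not matched. The 3 windows are printed because they are the member windows that hold the box, with the E-box in capitals, each 5′ to 3′ on the strand of the gene. The MXD4 window is chr4:2262110-2262359 (minus strand, first base of the box at -238 from the start), that of MNT is chr17:2401061-2401310 (minus strand, -193), and that of MLX is chr17:42566850-42567099 (plus strand, -50).
MXD4: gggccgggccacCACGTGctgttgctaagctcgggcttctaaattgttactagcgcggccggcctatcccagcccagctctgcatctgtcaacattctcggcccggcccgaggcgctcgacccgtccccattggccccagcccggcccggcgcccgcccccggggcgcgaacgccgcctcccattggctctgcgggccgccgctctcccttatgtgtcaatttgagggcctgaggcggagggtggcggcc
MNT: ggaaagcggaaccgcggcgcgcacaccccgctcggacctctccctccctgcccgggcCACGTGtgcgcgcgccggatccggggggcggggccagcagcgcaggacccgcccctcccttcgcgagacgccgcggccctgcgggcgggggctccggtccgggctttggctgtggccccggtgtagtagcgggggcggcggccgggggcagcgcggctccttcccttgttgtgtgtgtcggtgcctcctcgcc
MLX: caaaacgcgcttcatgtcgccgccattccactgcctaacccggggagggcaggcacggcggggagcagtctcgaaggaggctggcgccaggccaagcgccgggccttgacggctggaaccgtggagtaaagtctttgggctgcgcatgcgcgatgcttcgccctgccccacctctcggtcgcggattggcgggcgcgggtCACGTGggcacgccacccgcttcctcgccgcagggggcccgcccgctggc
These letters show where the motif is and do not say which factor binds there.

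MYC, measured by a probe spotted 10 times per array (A_23_P215956), had a lower signal on both arrays of MET suppression than on either control. The mean signal was 12128 on the DMSO array, 6910 on that of PHA665752, 11336 for sc siRNA and 7897 for MET siRNA. Single spots ranged from 11582 to 13122 with DMSO (median 12120, 10 spots used), from 6705 to 7133 with PHA665752 (6918, 9 spots), from 10891 to 11863 with sc siRNA (11291, 8 spots) and from 7561 to 8341 with MET siRNA (7929, 9 spots). No spot of a treated array reached the lowest spot of a control array, while the spots of the DMSO and sc siRNA arrays overlapped.

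**Figure D1:**
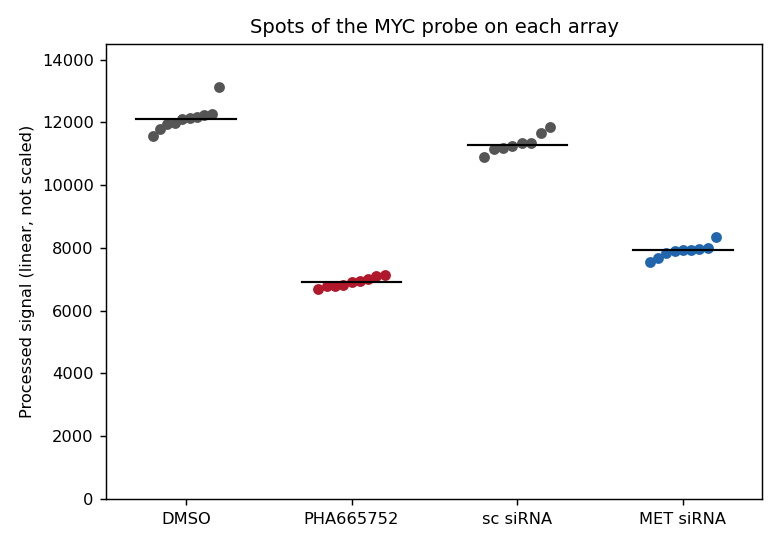
Processed signal (linear, before scaling between arrays) of each spot of the MYC probe used on the 4 arrays; each point is 1 spot and the line is the median. Spots with PHA665752 (6705 to 7133) and MET siRNA (7561 to 8341) lie below all spots with DMSO or sc siRNA, which start at 10891. Spots of an array show the spread within that array only.

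After scaling to the 75th percentile of each array, MYC was 1.51-fold lower with PHA665752 than with DMSO (log2 ratio -0.60) and 1.48-fold lower with MET siRNA than with sc siRNA (-0.57). Neither passed 2-fold. From spot to spot the SD was 0.0564 and 0.0551 (log2), so both differences exceeded the spread between spots within an array. That SD leaves out technical differences between arrays, which 1 array per condition cannot show. Between the controls MYC was 1.11-fold higher with sc siRNA (0.16, SD 0.0610). On the scaled log2 level the conditions ran from sc siRNA (3.77) through DMSO (3.61) and MET siRNA (3.20) to PHA665752 (3.02), both controls above both treated arrays. Both treatment ratios stayed below 0 under each of the 9 other ways of processing, from -0.84 to -0.49 with PHA665752 and from -0.87 to -0.50 with MET siRNA.

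Ratios of a similar size meant different standing in the pairs. With PHA665752, 2401 of 14322 genes (16.8%) had a log2 ratio as low as that of MYC or lower. With MET siRNA this held for 424 of 13647 genes (3.11%), since 2.73% of genes passed 2-fold in that pair against 21.1% with PHA665752.

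MYCL, another MYC paralogue, was measured at a lower signal of 262.5 for DMSO, 195.2 for PHA665752, 187.8 under sc siRNA and 173.0 under MET siRNA (A_33_P3306068). Its log2 ratios of -0.21, -0.17 and, between the controls, -0.23 did not set the treatments apart from the control pair.

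MAX, the shared partner, showed no difference past 2-fold on any of its 3 probes. The brightest (A_23_P205549) gave 12629 in DMSO cells, 12592 under PHA665752, 11147 in sc siRNA cells and 9200 in MET siRNA cells, log2 ratios of 0.21 and -0.32, and the first changed sign when the 50th percentile was subtracted (-0.036). A probe for another transcript variant (A_23_P151662) gave 1066, 972.1, 1123 and 1014 in the same order of arrays, and the dimmest (A_23_P436138) gave 256.3, 184.0, 275.3 and 258.9. With MET siRNA all 3 probes were below 0 (-0.32, -0.19 and -0.13) under each way of processing, and with PHA665752 they did not share a sign (0.21, 0.081 and -0.26). MGA, a large scaffold protein that also dimerises with MAX, had signals from 101.0 to 140.4 and log2 ratios of -0.22 and -0.11 on the probe with a value on each array (A_33_P3330323). A brighter MGA probe (A_23_P37654) had no usable value on the MET siRNA array and gave -0.074 with PHA665752 (1078 for DMSO and 882.8 for PHA665752).

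Among the partners that oppose MYC at E-boxes, MXD4 stood out. Its first probe (A_23_P423695) had a signal of 500.0 on the DMSO array, 2421 on that of PHA665752, 457.0 for sc siRNA and 760.5 for MET siRNA. The second (A_24_P234732) had 329.2, 1475, 271.3 and 497.3 on the same arrays. On both probes the control arrays were close together, PHA665752 was highest and MET siRNA lay between. MXD4 rose 5.62-fold with PHA665752 (log2 ratio 2.49, and 2.38 on the second probe), a ratio that 161 of 14322 genes (1.12%) reached or exceeded. With MET siRNA the ratios were 0.69 and 0.83, short of 2-fold, at rank 566 of 13647 genes (4.15%) by the brighter probe. Between the controls they were 0.12 and -0.026. Over the other ways of processing the first probe gave 2.24 to 2.49 with PHA665752 and 0.39 to 0.72 with MET siRNA.

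MXI1 (also called MXD2) rose with PHA665752 on 2 of its 3 probes. The probe for a different transcript variant (A_33_P3263902) gave 348.7 for DMSO, 918.7 for PHA665752, 217.9 under sc siRNA and 241.0 under MET siRNA, a log2 ratio of 1.61 with PHA665752. The other probes share a transcript accession and gave 4847, 9084, 3207 and 3485 (A_23_P161399, log2 ratio 1.12) and 6579, 10906, 4558 and 5266 (A_33_P3383029, 0.94, just inside 2-fold). PHA665752 was the highest array on each probe. The calls of the last pair of probes depended on the scaling, since subtracting the 50th percentile took 1.12 to 0.87 and quantile normalization took 0.94 to 1.08. With MET siRNA the 3 ratios were between 0.073 and 0.16, and each took the other sign under at least 1 other way of processing.

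MNT, the broadly expressed member of the repressor group, gave values that differed between its probes. The brighter (A_23_P341443) had 12109 in DMSO cells, 16909 under PHA665752, 10570 in sc siRNA cells and 12717 in MET siRNA cells, log2 ratios of 0.70 and 0.22. The dimmer (A_33_P3246733) had 419.0, 302.1, 303.8 and 295.9, log2 ratios of -0.26 and -0.085. None passed 2-fold, and the probes disagreed in sign in both treatment pairs.

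MXD1 did not follow MXD4. The brighter MXD3 probe was above 0 only with MET siRNA, at rank 388 of 13647 genes (2.84%). MXD1, a repressor induced in many cells on differentiation, had 423.4 on the DMSO array, 355.0 on that of PHA665752, 430.0 for sc siRNA and 432.3 for MET siRNA (A_24_P379750), with log2 ratios of -0.040 and -0.039. Its dimmer probe (A_23_P408094) had 185.1, 126.4, 258.1 and 234.9, and its largest ratio was that between the controls (0.73). MXD3, the member of the group whose expression is linked to dividing cells, had 9520 for DMSO, 5118 for PHA665752, 4137 under sc siRNA and 7620 under MET siRNA (A_33_P3297255). Here the control arrays differed more than either treatment pair: the log2 ratio was -0.95 for sc siRNA over DMSO, against -0.68 with PHA665752 and 0.83 with MET siRNA. Only 192 of 14274 genes (1.35%) were as low or lower between the controls, and the ratio passed 2-fold (-1.05) when the 50th percentile was subtracted. The siRNA ratio of MXD3 therefore has a control array that itself stood far from DMSO. A probe for another variant of MXD3 (A_24_P417706) lay near background, with signals from 15.6 to 30.4, and gave 0.59 and 0.50.

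MLX, the MAX-like partner, was measured by 1 probe (A_23_P164148), with 2101 in DMSO cells, 1104 under PHA665752, 1915 in sc siRNA cells and 1550 in MET siRNA cells. Both treated arrays lay below both controls. The ratio was 1.64-fold lower with PHA665752 (log2 -0.71, range over the other ways of processing -0.96 to -0.71) and 1.28-fold lower with MET siRNA (-0.35, range -0.65 to -0.32), against 0.12 between the controls. MLXIP (MondoA), the glucose-responsive partner of MLX, had 1558, 1547, 1215 and 1307 on its brighter probe (A_23_P9823), log2 ratios of 0.20 and 0.059, both of which changed sign under 1 other scaling. Its second probe (A_24_P415624) was marked as an outlier on the MET siRNA array and gave -0.091 with PHA665752. MLXIPL (ChREBP), the relative of MLXIP known from liver, was not well above background on any array.

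**Figure D2:**
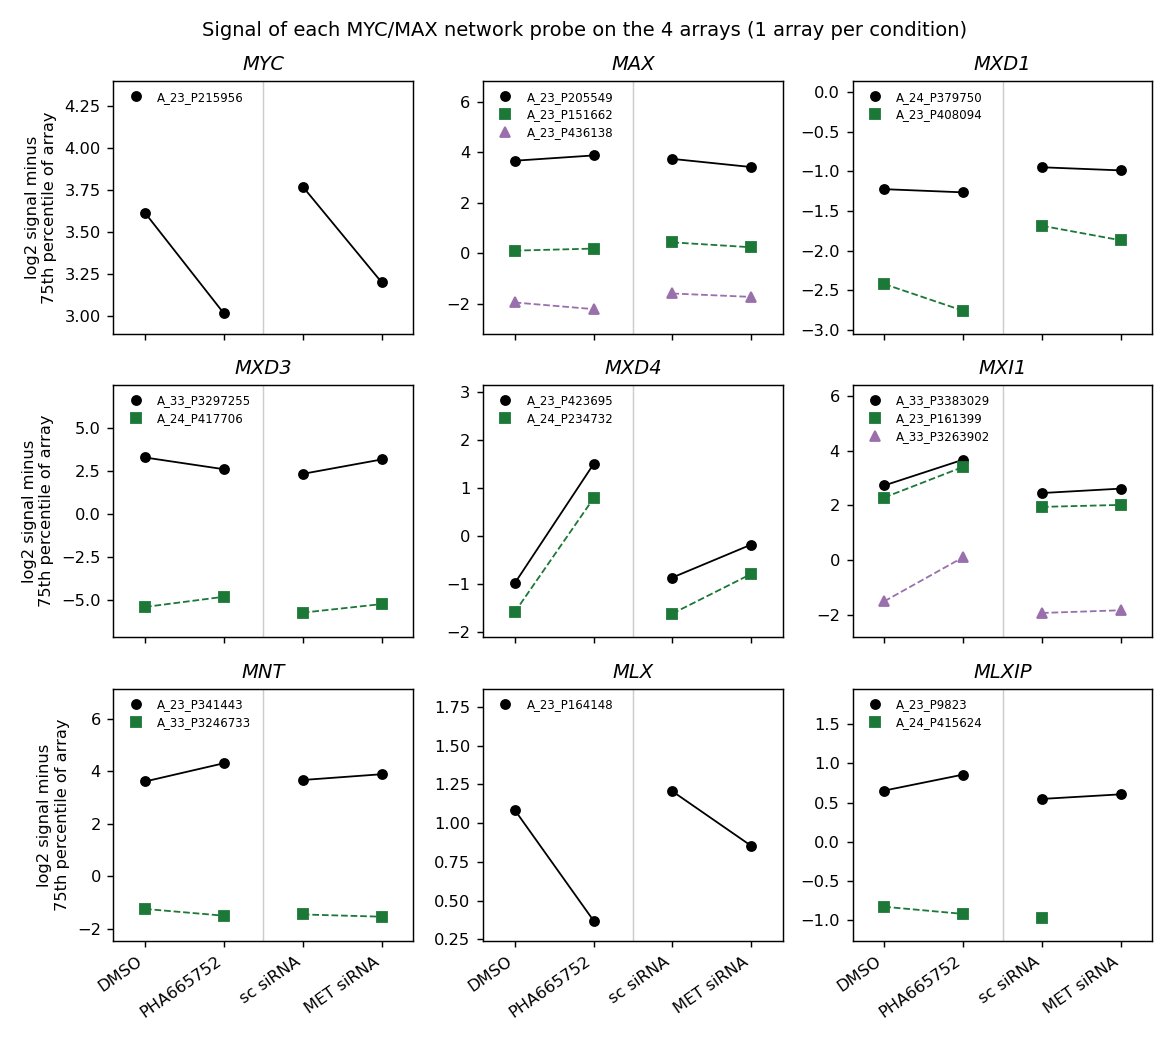
Scaled log2 signal (log2, relative to its array's 75th percentile) of each member probe on the 4 arrays, 1 panel per gene with its own axis and 1 point per array; lines join the arrays of a pair. MYC and MLX are lower on both treated arrays than on their controls, MXD4 is higher on both, and MXI1 is higher with PHA665752. MYCN, not above background, is left out, and no MLXIP value is drawn for the probe marked on the MET siRNA array.

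Counted together, 4 of 18 member probes with a ratio passed 2-fold upward with PHA665752 (2 of MXD4 and 2 of MXI1) and 0 downward, where 20.3% of all probes passed it, 12.8% upward and 7.43% downward. By the brightest probe, 1 of 9 member genes passed 2-fold in that pair (MXD4), against 21.1% of all genes. With MET siRNA 0 of 17 probes and 0 of 9 genes did, against 2.93% of probes and 2.73% of genes, and between the controls 0 of 18 probes and 0 of 9 genes did, against 4.19% (3.06% upward and 1.13% downward) and 4.05%. The share of member genes called depended on the scaling: it was 2 of 9 (MXD4 and MXI1) with PHA665752 under quantile normalization, against 19.8% of all genes, and 1 of 9 (MXD3) between the controls under the 50th percentile, against 3.98%. Their median log2 ratio was 0.20, 0.059 and 0.073 in the 3 pairs, beside 0.075, -0.017 and -0.010 for all genes, and the sign of each member median depended on the scaling.

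**Figure D3:**
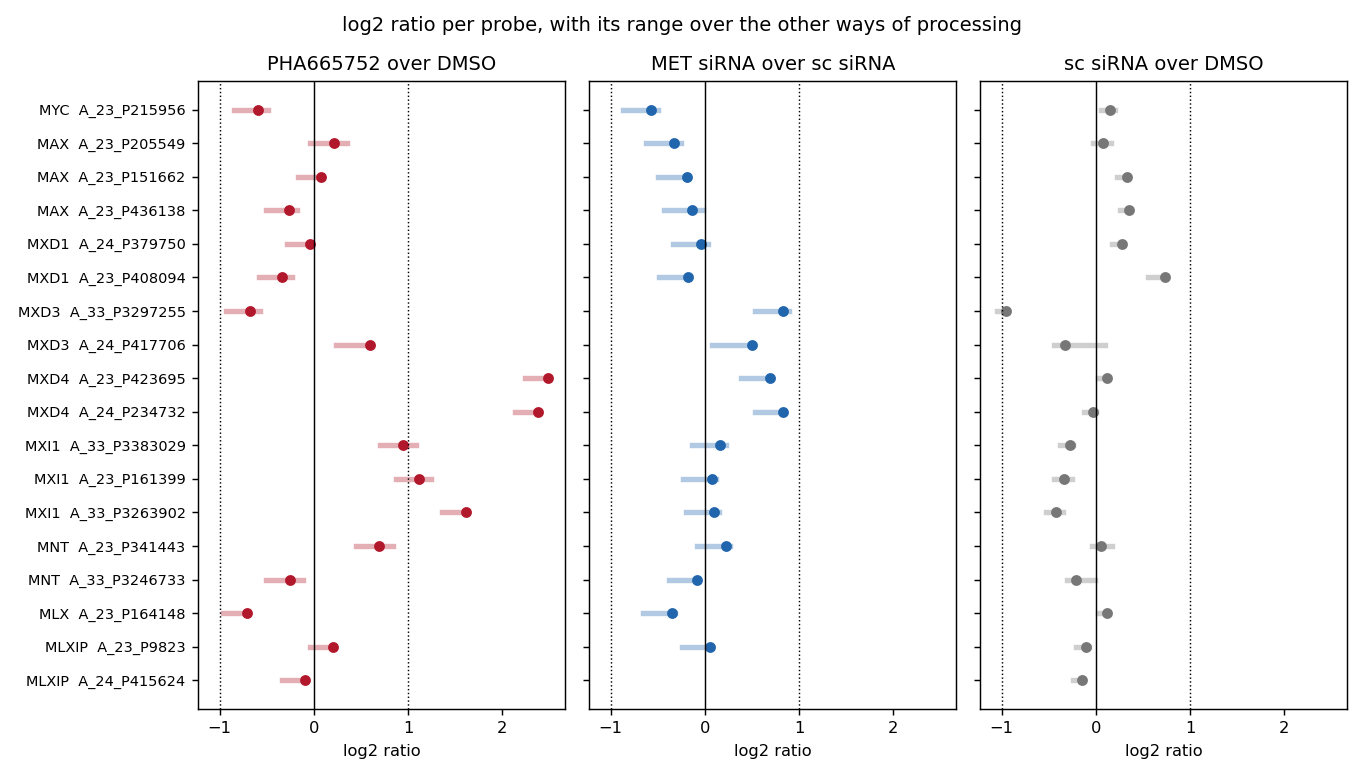
log2 ratio of each member probe in the 3 pairs (points), with bars from the lowest to the highest value over the 9 other ways of processing; dotted lines mark 2-fold. With PHA665752 both MXD4 probes and the MXI1 probe A_33_P3263902 lie beyond 2-fold over their whole bar, and with MET siRNA no probe does. The bars show processing only, not the spread between cultures.

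A difference between the ratios of a pair of genes on the same arrays does not depend on a constant taken from each array. Relative to MYC, MXD4 was 8.50-fold higher with PHA665752 than with DMSO (difference of log2 ratios 3.09, range over other ways of processing 2.88 to 3.09) and 2.39-fold higher with MET siRNA than with sc siRNA (1.26, range 1.19 to 1.33). Between the controls the difference was -0.032. MYC itself was lower in both treatment pairs (log2 ratios -0.60 and -0.57). A gene at the median of all genes (0.075 and -0.017) would therefore also have a difference above 0. The same difference was 1.54 and 0.73 for MXI1 and 1.29 and 0.79 for MNT by their brightest probes, against -0.43 and -0.099 between the controls. By the dimmer MNT probe the difference was 0.34 and 0.48. For MAX it was 0.81 and 0.24, and for MLXIP 0.80 and 0.63. MLX had -0.12 and 0.22. MXD1 had 0.56 and 0.53, and MXD3, whose control arrays differed, had -0.084 and 1.40, all by the brightest probe.

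By Euclidean distance over the 3 log2 ratios, among 13073 genes with a brightest probe well above background on all arrays, the genes most like MYC were NUDT19 (distance 0.0305), CCDC47 (0.0780), RIN2 (0.0783), PDE4DIP (0.0846) and PWP1 (0.0874). MLX was at rank 113 (0.2486), the nearest of the members, and MXD4 at 12901 (3.3328). The measure rests on 3 ratios of 4 arrays that share their controls.

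Genes listed as activated by MYC were mostly lower on both treated arrays. The list held 40 genes, among them genes of ribosome assembly, translation, nucleotide and polyamine synthesis, glycolysis, the cell cycle, chaperones and amino acid transport. With PHA665752, 35 of 39 with a ratio were below 0 (89.7%, against 45.1% of all genes), 13 fell past 2-fold (33.3%, against 8.04%; 23 genes when the 50th percentile was subtracted) and 1 rose (2.56%, against 13.1%), CCND2 (cyclin D2, log2 ratio 1.29, but 0.98 by normexp). The median was -0.86, or -0.93 relative to that of all genes. With MET siRNA, 33 of 40 were below 0 (82.5%, against 53.0%), none passed 2-fold in either direction (2.04% of all genes rose and 0.696% fell), and the median was -0.31, or -0.29 relative to all genes. Between the controls the median was 0.033, with 18 genes below 0, and 1 rose past 2-fold (SLC3A2, 1.14), where 2.89% of all genes rose and 1.16% fell. Relative to all genes the median of the list ranged over the other ways of processing from -1.06 to -0.82 with PHA665752 and from -0.35 to -0.24 with MET siRNA.

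NOP16, a nucleolar protein of large ribosomal subunit assembly, had 8533 on the DMSO array, 2598 on that of PHA665752, 8271 for sc siRNA and 5830 for MET siRNA, so the controls lay together and both treated arrays below (log2 ratios -1.50 and -0.55). BOP1 and MRTO4, which also act in ribosome assembly, fell by 1.65 and 1.54 on the log2 scale with PHA665752 and had -0.29 and -0.36 with MET siRNA. TFRC, the transferrin receptor, fell by 1.30 with PHA665752 and had -0.52 with MET siRNA. PPAT, which catalyses the committed step of purine synthesis, fell by 1.29 and had -0.37. SLC7A5, an amino acid transporter, differed from these: its signal was 287.9 for DMSO, 47.1 for PHA665752, 404.1 under sc siRNA and 531.9 under MET siRNA, log2 ratios of -2.40 with PHA665752 (-1.50 by normexp), 0.35 in the siRNA pair and 0.74 between the controls.

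The E-box CACGTG lay upstream of 13 of the 33 matched genes of this list (39.4%, against 7.7% over the table). Within the list, the genes with and without it had similar medians, -0.92 (13 genes) and -0.82 (20 genes) with PHA665752 and -0.33 in both sets with MET siRNA.

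Of the genes listed as repressed by MYC, few could be measured, and most of these had ratios above 0. Of 8 listed, 6 had a ratio, 5 of them above 0 in each treatment pair (83.3%, against 54.9% and 47.0% of all genes), and the medians were 0.96 and 0.35, beside 0.12 between the controls. With PHA665752, 2 passed 2-fold upward (33.3%, against 13.1% of all genes): GADD45A, a stress-induced growth arrest gene (3047 in DMSO cells, 6283 under PHA665752, 5004 in sc siRNA cells and 6952 in MET siRNA cells, log2 ratio 1.26), and NDRG2 (731.3, 1358, 487.4 and 768.5 in the same order, log2 ratio 1.11). The NDRG2 call was lost with the 50th percentile (0.86) and with normexp (0.96). With MET siRNA they had 0.43 and 0.61. The GADD45A control arrays also differed by 0.97, and those of DDIT3, a stress response factor, by 1.34. CDKN1A (p21), the classic gene of the list, went the other way with PHA665752, at -0.95. GAS1 was too dim for a ratio and NDRG1 had no probe with a value on each array.

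Regulators of MYC were listed as 12 genes, among them genes of proteins that modify or degrade MYC. With PHA665752, 11 had a ratio and 3 passed 2-fold, 1 upward (9.09%, against 13.1% of all genes) and 2 downward (18.2%, against 8.04%). With MET siRNA, 10 had a ratio. Of these, 1 passed 2-fold upward (10.0%, against 2.04% of all genes) and 0 downward (against 0.696%). PIM1, a kinase that phosphorylates MYC and cooperates with it, passed 2-fold narrowly in both treatment pairs, with 954.7 on the DMSO array, 1713 on that of PHA665752, 613.5 for sc siRNA and 1291 for MET siRNA (log2 ratios 1.06 and 1.03, and -0.39 between the controls). Both treated arrays were above both controls, but both calls were lost under 3 other ways of processing: with the 50th percentile (0.81 and 0.99), the median of probes well above background (0.96 and 0.73) and normexp (0.98 and 0.94). AURKA, a mitotic kinase that also stabilises MYC proteins, fell by 1.88 with PHA665752 and had 0.030 with MET siRNA. SKP2, a ubiquitin ligase subunit that acts on MYC, had 121.0 for DMSO, 33.9 for PHA665752, 110.0 under sc siRNA and 113.6 under MET siRNA, and fell by 1.62 with PHA665752, though by normexp background correction its ratio was -0.79, inside 2-fold. The list median was -0.21 and 0.015, and the latter changed sign with the scaling. FBXW7, the ubiquitin ligase subunit best known for MYC turnover, had -0.089 and -0.37.

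The cofactors passed 2-fold once. Of 9 coactivators (chromatin-modifying subunits recruited by MYC), 1 passed it upward with PHA665752 (11.1%, against 13.1% of all genes). This was BPTF, with a log2 ratio of 1.14, and 0.060 with MET siRNA. The BPTF call was lost with the 50th percentile (0.90) and with normexp (0.95). The medians were -0.21 and -0.060, beside 0.075 and -0.017 for all genes. Of 7 corepressor subunits recruited by the MXD proteins and MNT, 5 had a ratio and none passed 2-fold in any pair. Of all genes, 21.1% did so in the inhibitor pair, 2.73% in the siRNA pair and 4.05% in the control pair. With 5 genes, the absence of calls does not set the list apart from all genes. The corepressor medians were -0.21 and -0.094 in the treatment pairs. The SIN3A and SIN3B genes, the scaffold of that complex, had no probe with a value on each array.

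TXNIP, the best known target of MLXIP with MLX, rose in both treatment pairs, whereas neither partner passed 2-fold in any pair. Its signal was 1645 in DMSO cells, 17893 under PHA665752, 2524 in sc siRNA cells and 7432 in MET siRNA cells (A_23_P97700). Both treated arrays were above both controls, and the controls differed too. The log2 ratio was 3.66 with PHA665752 (rank 11 of 14322 genes) and 1.51 with MET siRNA (rank 108 of 13647), against 0.87 for sc siRNA over DMSO. TXNIP encodes an inhibitor of thioredoxin and of glucose uptake. KLF10, another gene of the list of 4, had 0.27 and 0.024, while ARRDC4 and PKLR were too dim for a ratio in either treatment pair.

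A carbohydrate response element, the kind of site bound by MLXIP or MLXIPL with MLX, is built of 2 E-box-like boxes with 5 bases between them. The pattern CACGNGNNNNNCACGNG, searched on both strands, lay in the 250 bases upstream of 16 of 27305 genes (0.0586%), TXNIP among them (first base at -88). The TXNIP window, chr1:145996580-145996829 of GRCh38.p14 on the minus strand, is printed 5′ to 3′ with the matched pattern in capitals, because it is the known docking element of the partners described above.
TXNIP: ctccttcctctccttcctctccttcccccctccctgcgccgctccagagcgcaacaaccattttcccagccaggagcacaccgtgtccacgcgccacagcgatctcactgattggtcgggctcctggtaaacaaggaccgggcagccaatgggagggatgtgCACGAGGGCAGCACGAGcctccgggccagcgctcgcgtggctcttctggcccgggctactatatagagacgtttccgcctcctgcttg
A match is a description of the letters and was not tested for binding. None of the member windows held this pattern.

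**Figure D4:**
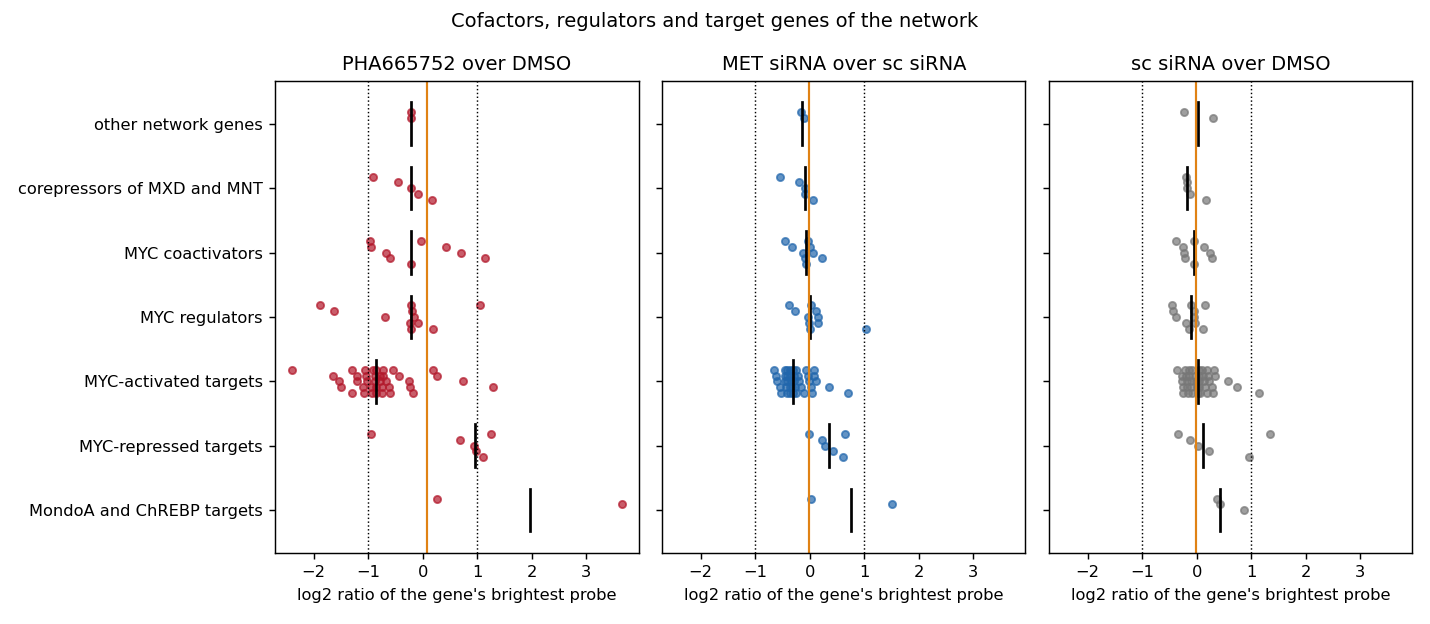
log2 ratio of the brightest probe of each gene (points) in 7 lists of network partners, cofactors, regulators and targets, in the 3 pairs; black bars are list medians, the orange line is the median of all genes and dotted lines mark 2-fold. MYC-activated targets lie mostly to the left in both treatment pairs (medians -0.86 and -0.31) and around the median of all genes between the controls (0.033). TXNIP is the point farthest to the right (3.66 with PHA665752).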

How the data were processed

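Total RNA of Hs746T cells was labelled with Cy3 and hybridised to single-colour Agilent arrays, 4 arrays of 34127 probes for 4 conditions. The authors deposited the scanner tables written by Feature Extraction (11.5.1.1 per the file headers). Their processed signal is a linear intensity, background-subtracted but not normalized between arrays; the deposited series matrix holds the same intensity values (all 132512 values of probes spotted once within 0.06) and served as an alternative. The headers name hg19 for the array design.

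Spots marked as outliers were dropped, log2 signals averaged over the spots of a probe, and each array's 75th percentile subtracted. Where a probe was well above background on 1 array of a pair, the ratio is a bound; where on neither, none is given. Of the probes, 25771 were named through RefSeq (GRCh38.p14, for names and promoter windows only). The brightest probe with a value on each array stood for a gene. "Called" means past 2-fold. Since each condition had 1 array, conditions could not be tested, and precision is limited by the few arrays. Errors come from those of the 999 probes spotted 10 times that had at least 5 usable spots and were well above background. These were 755 to 782 probes per array.

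Alternatives were the 50th percentile, quantile normalization, the median of probes well above background, normexp with an offset of 50 (limma 3.58.1, R 4.3.3) on median signals, plain background subtraction, a stricter and no filter on dim probes, outlier marks ignored, the series matrix and, for genes, the median over probes. The ratio step was tested on simulated data. Python 3.11.15, numpy 2.4.6, pandas 2.3.3 and matplotlib 3.10.9 were used. Members and lists were chosen with earlier results of these data known. Of each list, members past 2-fold in a treatment pair were eligible to be named, at most 6 by the larger absolute ratio; CCND2, SLC3A2, CDKN1A, DDIT3, FBXW7 and KLF10 were named after their values were seen. Genes like MYC were the 5 at the smallest distance.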

Additional observations from a re-analysis of the deposited data

How the results depend on the processing

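No paired analysis was possible because each condition had a single array. Of 120 summary values under other settings, 108 stayed within a margin of 1.5 times for counts and of the SD between spots for the MYC ratio, and 12 moved. A reversal could not be scored for these values. It was defined only for a log2 ratio past 2-fold, and the others were counts. Of 2963 values of single probes, genes and list medians, 656 moved by more than the noise between spots and none past 2-fold changed sign. The MYC log2 ratio of -0.60 with PHA665752 became -0.84 with the 50th percentile, -0.69 with the median of probes well above background and -0.49 with quantile normalization. That of -0.57 with MET siRNA became -0.87 with the median of probes well above background and -0.50 with quantile normalization, and that of 0.16 between the controls became 0.057 with the 50th percentile. Member genes past 2-fold with PHA665752 went from 1 to 2 with quantile normalization and with the median over probes, and between the controls from 0 to 1 (MXD3) with the 50th percentile. MYC-activated targets that fell with PHA665752 went from 13 to 23 with the 50th percentile, those that rose from 1 to 0 with normexp, and those that rose with MET siRNA from 0 to 1 with plain background subtraction.

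Scaling moved the log2 ratios. Their median shift was -0.25 with PHA665752 under the 50th percentile and -0.12 under quantile normalization. With MET siRNA it was -0.30 under the median of probes well above background. The share of called genes that were higher went with PHA665752 from 62.0% to 42.5% under the 50th percentile, with MET siRNA from 74.5% to 40.2% under the median of probes well above background, and between the controls from 71.5% to 62.0% under the 50th percentile. Genes past 2-fold were 12.7%, 0.549% and 1.67% in the 3 pairs under normexp (21.1%, 2.73% and 4.05% as reported), and 5.44% with MET siRNA and 6.58% between the controls with no filter on dim probes. With the stricter filter 1.50% passed with MET siRNA. Of 53 member probe ratios, 40 kept their sign under all 9 alternatives and 13 did not (3, 6 and 4 in the 3 pairs); 3 changed their call. The causes were not tested. Each value rests on 1 culture per condition, and signals near the lowest well above background (10.2 to 17.4) give little precision.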
